A study of Homo sapiens with 3 samples.

Results

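The regions described are promoters in the human cholangiocarcinoma (CCA, bile duct cancer) line HuCCT1 at which the TAF4 chromatin immunoprecipitation (ChIP-seq) gave a peak and the SBNO1 ChIP-seq gave none. They were chosen by measured values, namely the presence of a TAF4 peak and the absence of an SBNO1 or IgG peak overlapping it by 1 bp or more, together with a distance of at most 1 kb between the peak edge and a transcription start site (TSS) of a protein-coding transcript in GENCODE 44. This selected 2037 of the 30508 peaks in the 3 deposited lists and 2037 of the 12763 TAF4 peaks. Of the TAF4 peaks, 6042 lay within 1 kb of such a TSS and 5810 of these were free of IgG, so the share without SBNO1 was 35.1% (95% interval 33.8 to 36.3). This share holds for every peak of the deposited lists and depends on which peaks are counted: against only the SBNO1 peaks at or above the median score it was 68.0%. The study itself reported fewer TAF4-bound genes within 1 kb of a TSS than are counted here, with SBNO1 at only a minority of them. Here, 3475 of 5173 such genes had a TAF4 peak shared with SBNO1. The study also placed nearly all its TAF4 peaks within 1 kb of a TSS, against 6042 of 12763 here. Its set of TSS is not given, so the peaks behind its shares may differ from those counted here. Whether the study selected peaks from these lists more strictly for its own gene counts is not given in the sources used here. The other 3773 TAF4 promoter peaks overlapped SBNO1, and 2 peaks without SBNO1 were left out for an IgG overlap.

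The study had followed up a physical interaction of the proteins by ChIP-seq with antibodies against SBNO1 or TAF4 and with control rabbit IgG, in cells for which no treatment or genetic change is given. The methods of the study state that material of at least 3 biological replicates was combined per antibody, which leaves 1 library for each of the 3 antibodies and no replicate error. Therefore no differences were tested, no p-values are given, and exact (Clopper-Pearson) 95% intervals of shares cover counting error only, since peaks and genes are not replicates. Since the lists give no read counts, the depth of the libraries is unknown here, and the absence of an SBNO1 peak cannot be told apart from SBNO1 signal below the threshold of the peak caller.

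TFIID is the general transcription factor that recognizes core promoters and helps to place RNA polymerase II at the start site. It consists of the TATA-binding protein (TBP) and TBP-associated factors (TAFs), among which TAF4 is a scaffold that holds the complex together and contacts activators and other TAFs. SBNO1 (Strawberry Notch 1) is a helicase-like nuclear protein whose fly homologue acts in Notch signalling. Most promoters of widely expressed genes lie in CpG islands, stretches of DNA rich in G, C and the dinucleotide CpG, and many carry binding motifs of SP/KLF, NF-Y (the CCAAT box) or ETS factors rather than a TATA box.

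As a check of the cell label, TAF4 promoter peaks free of IgG were found at 9 of 14 biliary epithelial marker genes and at 1 of 8 hepatocyte markers, compared to 5173 of 19689 protein-coding genes. Of the 9 biliary genes, 6 (66.7%, 29.9 to 92.5) had only peaks without SBNO1, an interval that reached into that of all 5173 genes (32.8%, 31.5 to 34.1). Among the 6 were the keratins KRT7 and KRT18, the adhesion molecules CDH1 and EPCAM, and the transcription factor SOX4. Only 4 of the 6 had no SBNO1 peak within 1 kb of any of their TSS, as KRT18 and EPCAM had one. The remaining 3, KRT8, KRT19 and SOX9, had peaks shared with SBNO1. No TAF4 promoter peak was assigned to the biliary markers MUC1, ONECUT1, GGT1, SPP1 and CFTR. SERPINA1, which encodes alpha-1 antitrypsin, was the hepatocyte marker with a peak. A peak at a promoter is not a measure of expression, so this is only a weak check of the cell label.

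To show what these promoters look like, the 150 bases upstream of the assigned TSS are printed for 10 members. Each stretch lay wholly inside its TAF4 peak. The sequences are from GRCh38 and run 5′ to 3′ on the strand of the gene, so the TSS follows the last base, and capitals mark matches, on either strand, to the motifs described with the results. IDI1 and NDUFB3 are shown because they were among the members with the highest score and the largest width. CTH, ID1, SLC25A3, MAGT1, SAP30 and KLF6 are shown for 1 motif each in a strong peak.
IDI1, chr10:1049120-1049269, minus strand: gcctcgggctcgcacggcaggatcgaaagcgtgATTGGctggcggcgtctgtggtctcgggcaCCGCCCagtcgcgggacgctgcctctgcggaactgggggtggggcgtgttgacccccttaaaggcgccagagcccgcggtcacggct
NDUFB3, chr2:201071851-201072000, plus strand: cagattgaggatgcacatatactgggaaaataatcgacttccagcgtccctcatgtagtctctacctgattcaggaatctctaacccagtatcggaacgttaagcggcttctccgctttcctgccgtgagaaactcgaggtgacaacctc
CTH, chr1:70411068-70411217, plus strand: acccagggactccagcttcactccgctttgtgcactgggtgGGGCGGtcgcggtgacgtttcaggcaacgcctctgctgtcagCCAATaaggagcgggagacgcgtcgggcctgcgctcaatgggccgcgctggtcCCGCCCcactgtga
ID1, chr20:31605133-31605282, plus strand: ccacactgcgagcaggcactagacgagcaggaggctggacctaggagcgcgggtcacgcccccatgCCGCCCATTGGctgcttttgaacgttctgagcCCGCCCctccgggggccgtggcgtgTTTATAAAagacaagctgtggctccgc
SLC25A3, chr12:98593441-98593590, plus strand: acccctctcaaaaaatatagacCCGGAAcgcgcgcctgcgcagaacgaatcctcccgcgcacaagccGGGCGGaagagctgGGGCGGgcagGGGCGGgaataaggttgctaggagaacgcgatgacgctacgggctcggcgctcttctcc
MAGT1, chrX:77895594-77895743, minus strand: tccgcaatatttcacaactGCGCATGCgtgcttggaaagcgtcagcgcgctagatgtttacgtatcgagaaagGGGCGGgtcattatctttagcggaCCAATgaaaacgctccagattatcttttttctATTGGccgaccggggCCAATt
SAP30, chr4:173370804-173370953, plus strand: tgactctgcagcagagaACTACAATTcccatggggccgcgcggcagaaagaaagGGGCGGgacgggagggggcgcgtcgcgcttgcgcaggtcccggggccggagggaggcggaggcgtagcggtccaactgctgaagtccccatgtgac
KLF6, chr10:3785282-3785431, minus strand: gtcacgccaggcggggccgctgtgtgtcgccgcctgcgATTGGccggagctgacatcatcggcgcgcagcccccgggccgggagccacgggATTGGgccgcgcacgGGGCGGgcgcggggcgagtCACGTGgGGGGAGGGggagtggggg
STK40 and CCNG1 were picked after their sequences were seen. STK40 shows a YY1 motif, and CCNG1 is shown for a palindromic element that was rare among the members.
STK40, chr1:36385925-36386074, minus strand: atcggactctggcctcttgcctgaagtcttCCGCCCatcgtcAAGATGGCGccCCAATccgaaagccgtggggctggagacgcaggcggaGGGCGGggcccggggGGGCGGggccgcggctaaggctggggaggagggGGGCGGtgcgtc
CCNG1, chr5:163437419-163437568, plus strand: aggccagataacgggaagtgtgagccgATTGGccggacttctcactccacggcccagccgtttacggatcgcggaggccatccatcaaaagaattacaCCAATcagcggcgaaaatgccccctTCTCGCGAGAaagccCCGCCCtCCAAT

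The printed stretches differ in make-up. IDI1, an isomerase of the cholesterol pathway, has a CCAAT box on the opposite strand and an SP/KLF match. NDUFB3, a subunit of respiratory complex I, has no match to any of the motifs there. ID1, an inhibitor of basic helix-loop-helix factors, joins a TATA box near the TSS with a CCAAT box and SP/KLF matches. In MAGT1, a magnesium transport and glycosylation protein, an NRF1 core stands before 3 CCAAT boxes. SAP30, a subunit of a histone deacetylase complex, has a ZNF143 core and an SP/KLF match. In KLF6, a zinc finger transcription factor, an E-box lies directly before a match to the ZNF148/ZNF281 motif.

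The 2037 peaks were assigned to 1956 protein-coding genes, which is 9.93% of the 19689 genes. 1882 genes had 1 such peak, 69 had 2 and 5 had 3 or more. TAF4 promoter peaks free of IgG were assigned to 5173 genes, of which 37.8% had at least 1 peak without SBNO1 and 32.8% (1698 genes) had no other kind. The remaining 258 genes had a peak without SBNO1 and a shared one, at different places. Of the 1956 genes, 362 (18.5%, 16.8 to 20.3) had an SBNO1 peak within 1 kb of some TSS of theirs, and 1594 had none. At 15.4% (13.9 to 17.1) of the peaks more than 1 gene had a TSS within 1 kb, against 20.5% (19.3 to 21.9) of the shared peaks, and there the nearest TSS decided the gene.

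Each peak carries a score from the authors that ends at a cap of 1000 and was used here only to order peaks. The first 12 members by score and then by width all stood at this cap. CALM2, which encodes the calcium sensor calmodulin, had the widest peak of these 12, 1055 bp. It was centred 10 bp downstream of its TSS and lay 14421 bp from the nearest SBNO1 peak. The peak of IDI1 measured 806 bp, with the nearest SBNO1 peak at 12129 bp. ZC3H15, a zinc finger protein, had a peak of 742 bp with an SBNO1 peak only 156 bp away. AFF4, the scaffold of the super elongation complex, had a peak of 701 bp, and BCL6, a transcriptional repressor, one of 690 bp. The first 12 also held NDUFB3, CTH (a cystathionine-cleaving enzyme), YY1AP1, WWC1 (the Hippo pathway protein KIBRA), TYW1B and USP9X (a deubiquitinase), with widths of 638 to 688 bp. Their functions range from calcium sensing to sulfur metabolism and transcription elongation.

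At the low end, the members with the lowest scores were GALC (285), GOLIM4 (295) and BMP4 (315). Their peaks were wide, 729 bp, 735 bp and 675 bp, and those of GALC and BMP4 had an SBNO1 peak 135 bp and 243 bp away. GALC is a lysosomal enzyme, GOLIM4 a Golgi membrane protein and BMP4 a secreted growth factor. Across all members the median score was 884 and the median width 352 bp (range 75 to 1417), compared to 1000 and 452 bp (144 to 2360) for the shared peaks. The cap was reached by 36.3% (34.2 to 38.5) of the members and by 55.7% (54.1 to 57.3) of the shared peaks. Thus the members were the lower and narrower part of the TAF4 promoter peaks, although 740 of them stood at the cap.

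The share without SBNO1 was higher among TAF4 promoter peaks of low score and among narrow ones. It went from 71.7% (57.7 to 83.2, 38 of 53 peaks) at scores under 400 to 26.0% (24.4 to 27.7, 740 of 2843) at the cap. By width, it went from 54.4% (50.6 to 58.2) under 250 bp to 17.2% (15.1 to 19.5) at 600 bp and over. Among peaks at the cap, the share was 53.2% (49.1 to 57.4) under 250 bp and 3.80% (2.27 to 5.94) at 600 bp and over, which left 18 members in this widest class at the cap. CALM2, IDI1, ZC3H15, AFF4, BCL6, NDUFB3 and CTH were among these 18. Below the cap, the peaks of 600 bp and over lacked SBNO1 in 26.7% (23.4 to 30.2). A wider peak offers more bases to a 1 bp overlap, and how far this alone set the trend was not tested.

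**Figure D1:**
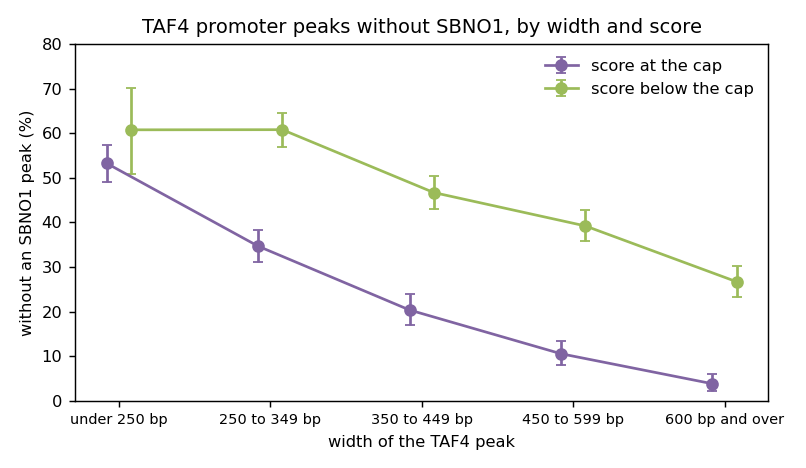
Share of TAF4 promoter peaks free of IgG that had no SBNO1 peak (y axis, %), by the width of the TAF4 peak (x axis) and by whether its score stood at the cap of 1000 (purple) or below it (green). Points are shares and bars exact 95% intervals; the share at the cap goes from 53.2% in the narrowest class to 3.80% in the widest, and below the cap it is 26.7% in the widest.

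The members were chosen for lacking an overlapping SBNO1 peak, so some gap was given by the choice. The gap to the nearest SBNO1 peak had a median of 34597 bp, and 48.1% (45.9 to 50.3) of the members lay 10 kb to under 100 kb from one. For comparison, the median gap of the members to the nearest other TAF4 peak was 33297 bp. A gap of 100 kb or more was found for 23.6% (21.7 to 25.5), and the largest were those of CHM (8147835 bp), HSF2 (3546640 bp) and LAS1L (3293737 bp). CHM encodes a Rab escort protein, HSF2 a heat shock factor and LAS1L a ribosome biogenesis factor. By contrast, 146 members (7.17%, 6.09 to 8.38) had an SBNO1 peak less than 500 bp away. TRAF4 and TNKS1BP1 had the smallest gap, 63 bp, followed by IVNS1ABP with 71 bp. On the other side of this limit, the shared peaks with the smallest overlap were those of NSF (1 bp), CNOT8 (55 bp) and NR1D1 (71 bp), while the median overlap of the shared peaks was 349 bp. At the limit of 1 kb from a TSS, the outermost members were CLDN4 (995 bp), PCGF5 (991 bp) and PTP4A1 (985 bp), and the TAF4 peaks just beyond it were those of RSF1 (1006 bp), SCUBE1 (1009 bp) and NAV2 (1017 bp).

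The TSS distance was part of the choice, but not the place of the peak within 1 kb. Of the members, 83.9% (82.2 to 85.4) covered a TSS, and 85.8% (84.2 to 87.3) had their centre within 250 bp of it. The centre lay upstream in 72.0% (70.0 to 74.0), with a median of −47 bp. In the shared peaks, 86.6% (85.5 to 87.7) covered a TSS and the median centre was at −61 bp, so both classes sat just upstream of the start site. A lower share of the members stood at divergent promoters, where a protein-coding gene on the other strand starts within 1 kb: 12.6% (11.2 to 14.1) of the members, 16.9% (15.7 to 18.1) of the shared peaks and 12.1% (11.6 to 12.6) of all protein-coding genes. For all genes the search ran 1 kb to either side of 1 TSS, and for peaks 1 kb outward from both edges. Wider peaks were therefore searched over more bases. Seen from the promoters, 28.7% (25.8 to 31.8) of TAF4 peaks at divergent promoters lacked SBNO1, compared to 36.2% (34.9 to 37.6) elsewhere. TAF4 peaks of the same score and width classes lacked SBNO1 in 32.1% and 35.6%, respectively, so score and width went along with part of this difference. The first divergent members were IDI1 with WDR37, NDUFB3 with HYCC2, YY1AP1 with DAP3, NUP98 with PGAP2 and ANAPC5 with RNF34, and which partner the peak served cannot be told apart. Long noncoding RNA genes started on the other strand at 21.2% (19.3 to 23.2) of the remaining members and 20.9% (19.5 to 22.4) of the remaining shared peaks.

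**Figure D2:**
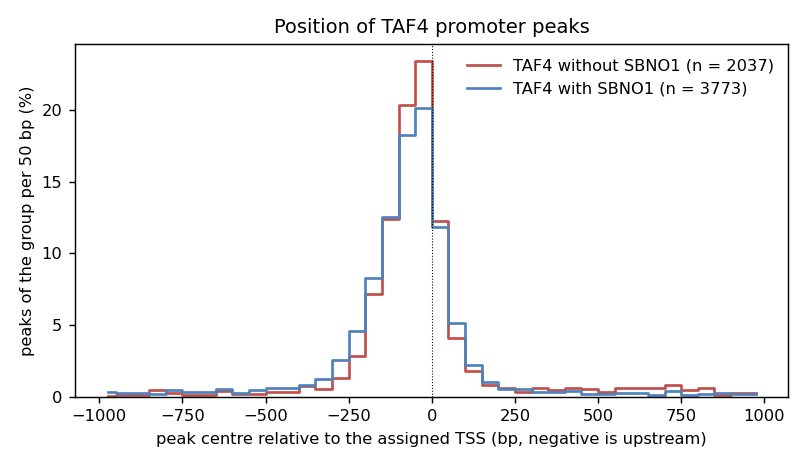
Position of the peak centre relative to the assigned TSS (x axis, bp, negative upstream) for TAF4 promoter peaks without SBNO1 (red, n = 2037) and with SBNO1 (blue, n = 3773), as the share of each class in bins of 50 bp (y axis, %). Both classes rise just upstream of the TSS, with medians of −47 and −61 bp; centres over 1 kb from the TSS are not drawn.

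Several genes held more than 1 member. CALM2 had a second peak of 336 bp, whose nearest TSS, an alternative one of the gene, lay 280 bp from its edge, with a score of 687. At USP9X, the pair measured 638 and 328 bp, and at INSIG1, which holds back sterol synthesis when sterols are plentiful, 547 and 540 bp. PTP4A1, a tyrosine phosphatase, had peaks of 536 and 420 bp, both at the cap, with SBNO1 peaks 163 and 1411 bp away. Some genes with both kinds of peak, chosen after their values were seen, were AFF1, PHACTR4, ANAPC5 and MAP2K3. AFF1, a paralogue of AFF4, had its member of 626 bp at one TSS and shared peaks of 536 and 757 bp at others. PHACTR4, ANAPC5 and MAP2K3 also had their member and their shared peak at different start sites, all with scores at the cap.

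The DNA under the members was rich in G and C. Over 200 bp at the peak centre, the median GC content was 67.0% in the members, 63.5% in the shared peaks and 66.5% at the start sites of all protein-coding genes. A CpG island-like window (GC over 50% and an observed to expected CpG ratio over 0.6) was found in 82.7% (81 to 84.3) of the members, 77.6% (76.2 to 78.9) of the shared peaks and 68.2% (67.5 to 68.9) of all genes. The 1027 TAF4 peaks without SBNO1 or IgG that lay over 1 kb from a TSS were unlike them, with a median GC content of 50% and such a window in 17.4% (15.2 to 19.9). Their scores were also lower, with a median of 792. The genes of the members had a median length of 35763 bp, those of shared peaks 32537 bp and all genes 27330 bp.

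Motifs were searched as exact letters on both strands, in the 200 bp at the peak centre of a TAF4 peak and, for all 19688 genes with a usable window, in the 200 bp at 1 TSS per gene. A match describes the letters in the window and is not evidence of a bound factor. The SP/KLF motif, GGGCGG, was the most frequent and was found in 65.1% (63.0 to 67.2) of the members, 56.8% (55.2 to 58.4) of the shared peaks and 53.9% (53.2 to 54.6) of all genes. When the shared peaks were weighted to the GC content of the members, their share was 65.3%. This weighting left out GC classes with fewer than 20 windows in a group, and members weighted in the same way had 66.55%. When the shared peaks were weighted to the score and width of the members instead, their share was 54.2%. AFF4, WWC1, HDAC1 (a histone deacetylase), NOTCH1 and ARF1 (a GTPase of vesicle coats) were among the members with a match. The CCAAT box, CCAAT, was found in 36.2% (34.1 to 38.3) of the members, 34.0% (32.5 to 35.5) of the shared peaks and 25.3% (24.6 to 25.9) of all genes. Weighting the shared peaks by GC content gave 32.3%, and weighting them by score and width gave 30.3%. Subtracted from the 36.2% of all members, these left 3.91 and 5.86 percentage points instead of 2.20. The contrast depended on the window. From 250 bp before to 50 bp after the TSS, 42.1% of the members, 42.0% of the shared peaks and 36.1% of all genes had a CCAAT box. In that window, the weighted shares of the shared peaks were 40.2% by GC content and 37.8% by score and width. In members at the cap, the CCAAT box was present in 42.8% (39.2 to 46.5), and in those below it in 32.4% (29.8 to 35.0). ZC3H15, CTH, CDH1 and the histone gene H3C10 had one.

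Other motifs were less frequent in the members than in the shared peaks. The ETS motif, CCGGAA, was found in 21.4% (19.6 to 23.3) of the members, 26.6% (25.2 to 28.0) of the shared peaks and 17.8% (17.3 to 18.3) of all genes, and in 26.4% and 27.6% of the shared peaks weighted by GC content and by score and width. For the YY1 motif, AAGATGGCG, the shares were 2.75%, 4.27% (3.65 to 4.96) and 2.71%. The AP-1 motif, TGACTCA or its reverse complement, was present in 3.58% of the members, 5.73% (5.01 to 6.51) of the shared peaks and 2.11% of all genes. The weighted shares of the shared peaks were 4.71% by GC content and 7.35% by score and width. From 250 bp before to 50 bp after the TSS, the AP-1 shares were 3.04% of the members, 4.69% of the shared peaks and 3.56% of all genes. The widest gap in relative terms concerned the palindromic element TCTCGCGA, which was found in 14 members (0.687%), in 3.53% (2.96 to 4.16) of the shared peaks and in 1.20% of all genes. Weighting the shared peaks by GC content gave 3.30%, and weighting them by score and width gave 4.04%. From 250 bp before to 50 bp after the TSS, the element was found in 1.57% (1.08 to 2.21) of the members and 4.69% of the shared peaks. In that window, 1.74% of all genes had it, which lies within the interval of the members. Of the 147 TAF4 promoter peaks with this element, 9.52% (5.31 to 15.5) lacked SBNO1, whereas peaks of the same score and width classes lacked it in 34.9%. MNT, a MAX-binding repressor, and SDF2L1, an endoplasmic reticulum chaperone component, were members with the element at the peak centre.

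The E-box, CACGTG, was found in 9.03% (7.82 to 10.4) of the members, as in KLF6 and USP9X, in 8.19% of the shared peaks and in 5.61% of all genes. The cAMP response element (CRE), TGACGTCA, was found in 3.29% of the members, for example at NUP98 and MAFF, in 2.62% of the shared peaks and in 2.04% of all genes. The NRF1 core, GCGCATGC, was found in 4.08% of both classes, for example at MAGT1 and SPG7, and in 2.97% of all genes. The ZNF148/ZNF281 motif, GGGGAGGG, was present in 12.1% of the members, 9.78% of the shared peaks and 12% of all genes, but in 12.1% of the shared peaks weighted by GC content. Members weighted in the same way had it in 12.3%. The ZNF143 core, ACTACAATT, was rare, with 0.295%, 0.663% and 0.163%. None of the 12 motifs was found in 12% (10.7 to 13.5) of the members and 13.2% (12.2 to 14.4) of the shared peaks, BCL6 among the former. Some motifs can overlap, such as SP/KLF with ZNF148/ZNF281, so the shares do not add up.

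A TATA box, TATAAA, was found in 4.08% (3.26 to 5.03) of the members, 3.53% of the shared peaks and 6.62% of all genes. It was more frequent in the 352 members outside CpG island-like windows, with 7.39% (4.88 to 10.6) compared to 3.38% (2.57 to 4.36) in the 1685 within. These 352 members also had more AP-1 matches (11.1% compared to 2.02%) and fewer SP/KLF matches (32.1% compared to 72.1%). OAZ1, which restrains polyamine synthesis, ID1 and the histone genes H3C11, H3C1 and H4C13 were members with a TATA box. Relative to the TSS, TATA boxes of the members were most frequent at −50 to −26 bp, the CCAAT box and SP/KLF at −75 to −51 bp, and ETS at −25 to −1 bp. The YY1 motif was most frequent at 0 to 24 bp, on the transcribed side. In the shared peaks, the same positions were the most frequent for these motifs other than SP/KLF, which was most frequent at −50 to −26 bp.

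**Figure D3:**
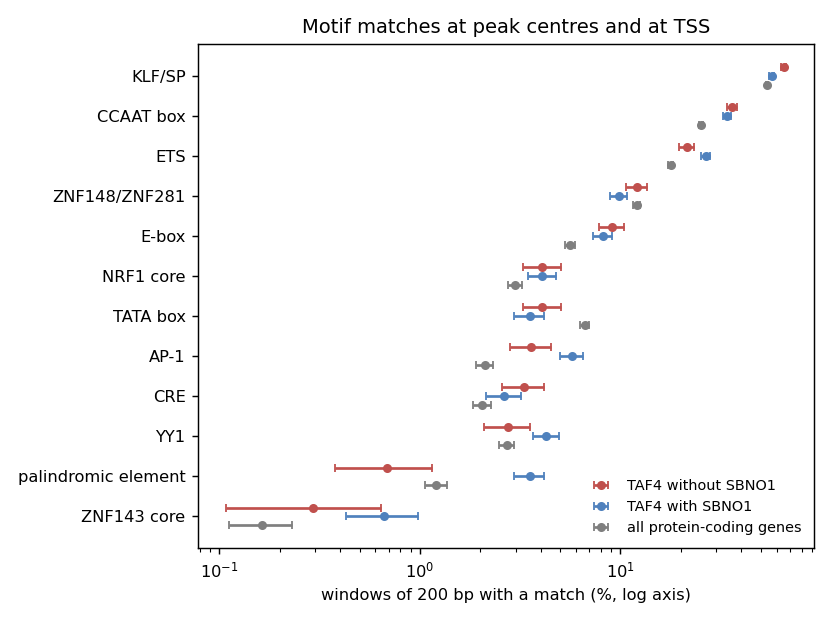
Share of 200 bp windows with a motif match (x axis, %, log scale) for TAF4 promoter peaks without SBNO1 (red), TAF4 promoter peaks with SBNO1 (blue) and the TSS of all protein-coding genes (grey). Points are shares and bars exact 95% intervals; the palindromic element was present in 0.687% of the peaks without and 3.53% of those with SBNO1, and SP/KLF in 65.1% and 56.8%.

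The genes were then grouped by 32 lists of symbols that stand for complexes, families and markers. In total, 342 member genes (17.5% of 1956) belonged to a list, and 31 of the lists had members. For each list, the share of TAF4-bound genes (those with a TAF4 promoter peak free of IgG) whose peaks all lacked SBNO1 was compared with the 32.8% of all 5173 such genes. Among the 26 lists with at least 10 TAF4-bound genes, the interval of 1 lay wholly above the interval of all genes (31.5 to 34.1) and the intervals of 3 lay wholly below. Against only the SBNO1 peaks at or above the median score, the share was 65.4% of all TAF4-bound genes, 77.4% for zinc finger genes, 29.6% for cytosolic ribosomal proteins, 35.7% for proteasome subunits and 58.1% for splicing factors.

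Zinc finger (ZNF) genes, many of which encode DNA-binding repressors, were the list above. Of their 115 TAF4-bound genes, 60 (52.2%, 42.7 to 61.6) had only peaks without SBNO1. Counted by peaks, 52.5% of 120 lacked SBNO1, while TAF4 promoter peaks of the same score and width classes lacked it in 42.8%. The strongest were ZNF124, ZNF608, ZNF57 and ZNF77, with peaks of 349 to 440 bp at the cap. ZNF124 had its nearest SBNO1 peak at 38543 bp, ZNF57 at 49444 bp and ZNF77 at 5172 bp, while that of ZNF608 was 866 bp away. However, only 62 of the 512 ZNF genes (12.1%, 9.41 to 15.3) had a member, against 9.93% of all genes, and 397 had no TAF4 promoter peak. On chromosome 19, from 58 to 59 Mb, the members ZNF446, ZNF497, ZNF8, ZNF837, MZF1 and ZSCAN22 lay close together.

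Cytosolic ribosomal proteins were at the other end. TAF4 promoter peaks were found at 71 of 88 genes, but only 3 (4.23%, 0.880 to 11.9) had no shared peak. 5 genes had a member, and the strongest were RPL13, RPS21, RPL26L1 and RPL32. Their peaks were narrow, 263 bp at RPL13, 204 bp at RPS21, 157 bp at RPL26L1 and 236 bp at RPL32. The SBNO1 peak nearest to RPL32 was 91 bp away and that of RPL26L1 314 bp, whereas it was 20481 bp at RPL13 and 5469 bp at RPS21. Peaks of the whole list lacked SBNO1 in 6.76% of 74, compared to 21.3% at the same score and width classes.

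Proteasome subunits resembled them, with 2 of 28 TAF4-bound genes (7.14%, 0.877 to 23.5) lacking any shared peak. PSMB4, a subunit of the proteasome core, had a member of 422 bp with a score of 798, and PSMD1, a base subunit of the regulatory particle, one of 390 bp with 796. PSME3, an activator subunit, had a member of 181 bp at the cap and a shared peak besides. Splicing factors were the third list below, with 12 of 62 genes (19.4%, 10.4 to 31.4). HNRNPDL (398 bp), HNRNPM (394 bp), SF3B5 (387 bp) and SRSF6 (324 bp), all at the cap, were the strongest members among RNA-binding proteins of this list. By peaks, splicing factors lacked SBNO1 in 21.6%, compared to 29.1% at the same score and width classes, and proteasome subunits in 10.3%, compared to 30.0%.

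In the remaining lists the intervals reached into that of all genes. Mitochondrial ribosomal proteins gave 10 of 46 genes (21.7%), among them MRPS31, MRPL44, MRPL36 and MRPL46. The respiratory chain and ATP synthase gave 19 of 54 genes (35.2%, 22.7 to 49.4), a value close to that of all genes. Its members included the complex I subunits NDUFB3 and NDUFA1 and, from ATP synthase, the inhibitor ATP5IF1 (300 bp) and the stalk subunit ATP5PO (261 bp), all at the cap. Translation factors and their regulators gave 12 of 46 genes, among them the elongation factor EEF2 (270 bp) and the initiation factors EIF1AX (331 bp), EIF5B (324 bp) and EIF3K (263 bp). For aminoacyl-tRNA synthetases, which load tRNAs, the count was 8 of 28, and the strongest were AARS1 (501 bp) and TARS2 (440 bp). Chaperones gave 8 of 43, with DNAJB1 (474 bp) first, while HSPH1 (359 bp) had a shared peak besides its member and an SBNO1 peak 215 bp from the latter. In mitochondrial protein import, 3 of 19 genes had no shared peak, and GRPEL1 and TIMM22 had the strongest members.

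TFIID itself and the other general transcription factors were of interest because TAF4 is one of them. 8 of 27 TAF4-bound genes of this list (29.6%, 13.8 to 50.2) had only peaks without SBNO1. They included the TFIID subunits TAF7 (181 bp, at the cap), TAF10 (297 bp, score 934) and TAF13, the TFIIH helicases ERCC3 (189 bp, at the cap) and ERCC2 (267 bp, score 915), and GTF2A2 of TFIIA. TBP, TAF1, TAF2, TAF5, TAF6, TAF11 and TAF12 had shared peaks. The TAF4 gene had no TAF4 promoter peak free of IgG. GTF2IRD2B, POLR2J2 and TYW1B have near-identical copies elsewhere in the genome, so reads at these members may be misplaced. Mediator, which links activators to RNA polymerase II, gave 5 of 18 genes: the kinases CDK8 and CDK19 and the subunits MED11, MED26 and MED30. The member of MED11 had an SBNO1 peak 137 bp away. In RNA polymerases, the members POLR2L and POLR1D are shared subunits of several polymerases.

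Among chromatin regulators, 11 of 39 TAF4-bound genes had only members, including the demethylase KDM5B (393 bp), the deacetylase HDAC1 (357 bp) and the SWI/SNF core subunit SMARCB1 (228 bp), all at the cap. BRD2, a reader of acetylated histones, had a member and a shared peak. Clustered histone genes gave 10 of 39 (25.6%). H3C10 (393 bp), H3C11 (250 bp) and H3C1 (210 bp) stood at the cap, and the GC content of these peaks, 39.5%, 48.0% and 46.5%, was below the median of the members. In DNA replication and repair, GINS1 (223 bp), RFC4 (191 bp), ORC3 (180 bp), RAD9A (277 bp) and RAD54L (173 bp) had members at the cap. GINS1 had a shared peak besides its member, and RFC4 had an SBNO1 peak at another TSS. For mitosis, the anaphase-promoting complex supplied ANAPC1, ANAPC5 and ANAPC7.

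Autophagy had few TAF4-bound genes, and 6 of 10 (60%, 26.2 to 87.8) lacked a shared peak. MAP1LC3B and GABARAP encode ubiquitin-like proteins of the autophagosome, and WIPI2 and ATG101 act early in its formation. Their peaks measured 432, 451, 222 and 492 bp, with scores of 1000, 801, 1000 and 651. Vesicle traffic gave 29 of 88 (33.0%), with SEC61B of the protein translocation channel (543 bp), EXOC4 of the exocyst (295 bp) and ARF1 (226 bp). Ubiquitin conjugation gave 9 of 28, with the E2 enzymes UBE2A (390 bp) and UBE2D3 (290 bp) and the SCF subunit SKP1 (487 bp), while UBE2D1 (256 bp) had a shared peak as well. Solute carriers gave 29 of 79 (36.7%), with the glucose transporter SLC2A8 (565 bp) and the mitochondrial phosphate carrier SLC25A3 (528 bp) first. Of the nuclear transport genes, NUP98 (611 bp) and the exportin XPO1 (326 bp) had members, the latter besides a shared peak.

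Of 9 TAF4-bound genes of the Notch pathway, 3 (33.3%, 7.49 to 70.1), namely the receptor NOTCH1 (401 bp, at the cap), the target gene HES4 (336 bp, at the cap) and the sheddase ADAM10 (519 bp, score 979), had only members. RBPJ, the DNA-binding factor of the pathway, had a member (524 bp, score 671) at one TSS and a shared peak at another, and NOTCH2, JAG1, MAML1, MAML2 and ADAM17 had shared peaks. In the MAPK pathway, 5 of 18 TAF4-bound genes (27.8%, 9.70 to 53.5) had only members, and MAPK6 (184 bp, at the cap) and MAP3K14 (528 bp, score 937) had members. Of 143 genes for interleukins, chemokines and their receptors, IL18 and CXCL5 (1.40%, 0.170 to 4.96) had a member, compared to 9.93% of all genes, and 11 had a shared peak. Of the 13 TAF4-bound genes of this list, 2 (15.4%, 1.92 to 45.5) had only members. IL18 had an SBNO1 peak 381 bp from its member, and only 1 of the 2 had no SBNO1 peak within 1 kb of any TSS. None of 388 olfactory receptor genes had any TAF4 promoter peak free of IgG (0%, 0 to 0.946).

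Cholesterol synthesis and uptake were listed in addition to the 32 lists, after IDI1 and INSIG1 had been seen among the strongest members. Of 25 genes, 19 were TAF4-bound, and 6 of these (31.6%, 12.6 to 56.6) had only members. These were IDI1, MVD, LSS, MSMO1 and DHCR7, all enzymes of the pathway, and INSIG1. The genes with shared peaks included the enzymes HMGCS1 and SQLE and the transcription factor gene SREBF2.

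**Figure D4:**
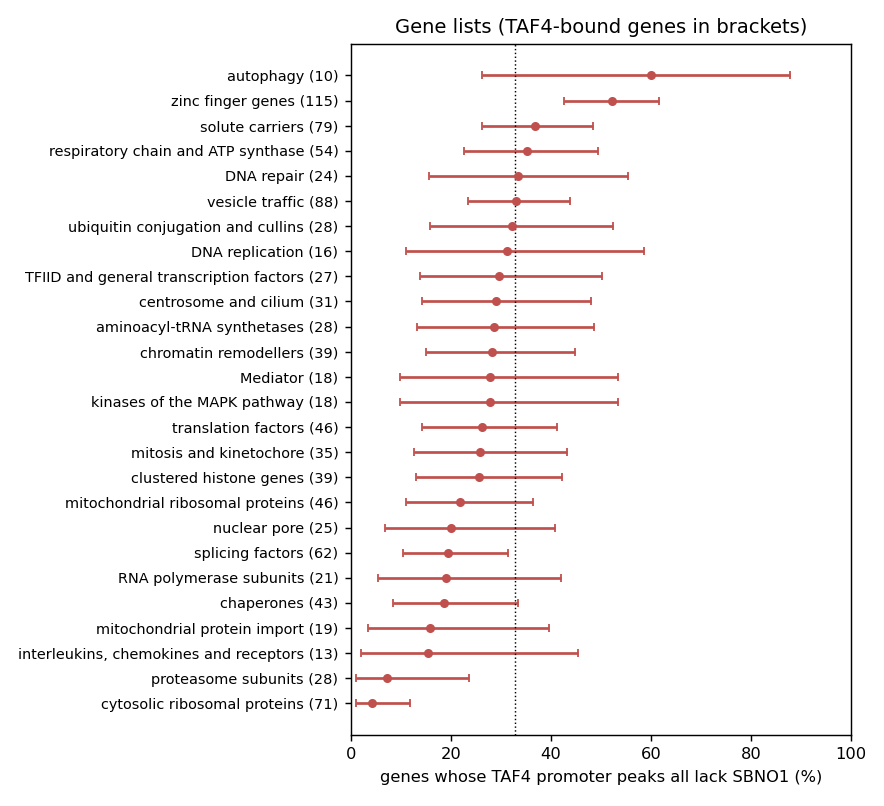
Share of TAF4-bound genes whose TAF4 promoter peaks all lacked SBNO1 (x axis, %), for the 26 of the 32 gene lists with at least 10 TAF4-bound genes, whose number stands in brackets. The cholesterol list, made after IDI1 and INSIG1 had been seen, is not drawn. Points are shares, bars exact 95% intervals and the dotted line the 32.8% of all TAF4-bound genes; zinc finger genes (52.2%) lie above it and cytosolic ribosomal proteins (4.23%) and proteasome subunits (7.14%) below.

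By chromosome, the share of TAF4 promoter peaks without SBNO1 was uneven. It was highest on chromosome 18 (69.2%, 52.4 to 83.0, 27 of 39 peaks) and chromosome 16 (65.1%, 56.1 to 73.4, 82 of 126). TAF4 promoter peaks of the same score and width classes lacked SBNO1 in 40.4% and 42.9%, respectively. The lowest share was found on chromosome 11 (21.8%, 17.8 to 26.1). Chromosomes 5 and 17 followed, with 25.2% (20.9 to 30) and 26.3% (22.2 to 30.8). Genes with a member made up 9.54% of the coding genes of chromosome 18 and 9.61% of those of chromosome 16, close to the 9.93% of all genes. It was the shared class that was small there, with 4.58% and 5.22% of the coding genes, compared to 17.7% (3475 genes) over the genome. On chromosome 11, 6.43% of the coding genes had a member and 22.5% a shared peak, and on chromosome 2, 12.6% had a member. Members on chromosome 16 included RPL13, AARS1, MAP1LC3B, CDH1, POLR3E, SPG7 and MVD, and NARS1 was one on chromosome 18. Whether copy number or read coverage in these cells goes along with the pattern cannot be read from peak lists.

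**Figure D5:**
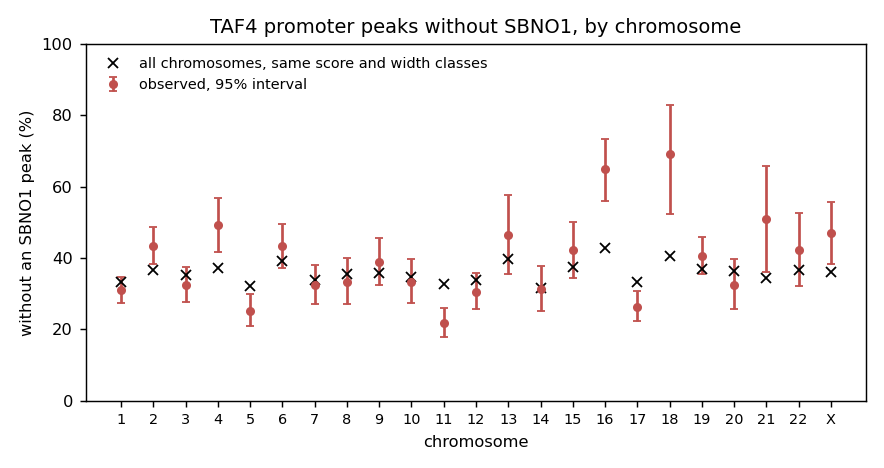
Share of TAF4 promoter peaks free of IgG without an SBNO1 peak (y axis, %) on each chromosome (x axis). Red points are observed shares with exact 95% intervals and crosses the share over all chromosomes for the same score and width classes; chromosomes 18 (69.2%) and 16 (65.1%) lie above their crosses and chromosome 11 (21.8%) below.

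Members were also dense in a few gene-rich stretches. In bins of 1 Mb, 11 members each lay at 1 to 2 Mb of chromosome 1, at 7 to 8 Mb of chromosome 17 and at 1 to 2 Mb of chromosome 19, next to 7, 16 and 6 shared peaks. The stretch of chromosome 1 held AGRN, HES4, GNB1, UBE2J2, INTS11 and ISG15, the last with 2 members. That of chromosome 17 held ACADVL, DVL2, EIF5A, GABARAP and KDM6B, and that of chromosome 19 held CIRBP, GPX4, MBD3, MIDN, STK11 and UQCR11. At 3 to 4 Mb of chromosome 19, 8 members, among them EEF2, DAPK3, DOHH and FZR1, were accompanied by 1 shared peak.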

How the data were processed

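Per the labels, ChIP had been done in HuCCT1 cells with an enzymatic chromatin kit, and the methods also name sonication for lysis. The authors deposited 1 peak list per antibody with GRCh38 coordinates and a score capped at 1000, whose scaling is not stated. The submitters' processing notes name Bowtie2 2.5.4 and Genrich 0.6.1, whereas the methods name ktrim, bowtie2, normR and ChIPseeker. Which caller made the lists, its threshold and its use of the IgG library are not given in the sources used here. No count of reads is held, so the depth is unknown.

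Distances were measured from peak edges to GENCODE 44 TSS with Python 3.11.15, numpy 2.4.6, pandas 2.3.3 and scipy 1.17.1, and peaks were assigned to the gene of the nearest TSS. Functions were tested on simulated data. Members, gene lists and motifs were chosen with earlier results of these data known. Lists were matched by symbol patterns, which let in some neighbours in name (CDC42 among mitosis genes). Peaks were ordered by score, width and position. Named were the first 12, the first 4 genes per list, 3 at each side of the distance limit, 3 at each end of the gap, 5 genes with several peaks, the 3 lowest scores, 5 divergent promoters and 2 per motif, and printed sequences mostly follow this. Genes named outside this rule complete the lists and stretches described and were chosen after their values were seen. Alternatives were other TSS sets and distances, overlap rules, score filters, windows and gene assignments. Motif shares were also weighted by GC content, and weighting by score (at or below the cap) and 5 width classes was added after seeing the data. Some items are not reported here.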

Additional observations from a re-analysis of the deposited data

How the results depend on the processing

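Score filters moved the counts most, by construction, since they drop peaks: with TAF4 peaks at or above the median score there were 886 members (27.1% of TAF4 promoter peaks, 867 genes), with those at the cap 740 (26.0%, 726 genes), and against SBNO1 peaks at or above their median score 3948 (68.0%, 3620 genes). The share without SBNO1 was 45.3% under 50% reciprocal overlap, 32.6% and 27.6% when no SBNO1 peak was allowed within 500 bp or 5 kb, and 33.8% with IgG not considered. Of 64 values for the leading results under alternatives, 34 stayed within the interval or within 1.5 times the count and 30 moved. A TSS was covered by 85.9% without SBNO1 within 500 bp, by 88.3% without it within 5 kb and by 88.3% at or above the median score. CpG island-like windows came to 86.9% (5 kb), 86.2% (median score) and 85.5% (windows of 1000 bp), and divergent promoters with TSS within 300 bp to 10.5%. The CCAAT box was found in 38.8% (5 kb), 42.8% (median score), 25.4% (windows of 100 bp) and 42.1% (250 bp before to 50 bp after the TSS). In the same order, SP/KLF was found in 68.0%, 69.2%, 46.3% and 77.8%, and ETS in 12.5% and 28.4% in the last 2 windows. The share of each list's genes with a member (64 values over 32 lists) stayed within its interval.

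Alternatives added after seeing the data included classes of GC content and classes of score and width. With GC classes, all members minus weighted shared peaks turned to −0.13 percentage points for SP/KLF, −0.057 for the E-box and −0.031 for ZNF148/ZNF281. This weighting left out GC classes with fewer than 20 windows in a group. Members weighted in the same way had 66.55%, 9.20% and 12.3%, above the 65.27%, 9.09% and 12.11% of the weighted shared peaks. With score and width classes, respiratory chain peaks turned to −2.47 points against all and cholesterol peaks to 8.55 points. In these classes, 22 of 32 list differences stayed within 1.5 times, 8 moved and 2 turned. For the 26 lists with at least 10 TAF4-bound genes, the share of these without a shared peak left its interval in 0 of 26 lists when SBNO1 was barred from every TSS of the gene or every gene in reach was counted, in 1 with TAF4 peaks at or above the median score (chromatin remodellers, 14.3%) and in 24 against SBNO1 peaks at or above it, where all TAF4-bound genes had 65.4%. The cause of these changes was not tested. No paired analysis was possible because only 1 library exists per antibody. The missing depth, the pooled replicates and the unknown SBNO1 threshold limit every absence given above.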
